A study of Mus musculus with 32 samples.

Results

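The 4 h response to aphidicolin in an ATMIN knock-out fibroblast line was measured by RNA sequencing in 4 libraries of a 32-library series. The libraries were chosen by their labels: 2 of ATMIN knock-out cells kept for 4 h with 1 µM aphidicolin (APH), and 2 of the same line kept for 4 h with DMSO, the vehicle. The 2 neighbouring experiments used for comparison have 4 libraries each: ATMIN knock-out cells with APH or DMSO for 24 h, and wild-type cells of the matching line (wtATMIN) with APH or DMSO for 4 h. All lines are mouse embryonic fibroblasts, and all 32 libraries (also those of ATM knock-out cells and their wild-type cells) took part in the estimate of the spread between replicates. Each genotype is a single line, and effects of the genotype and of the line cannot be told apart. Nothing in the labels shows that replicates came from separate cultures, so a p-value measures only the spread between these samples.

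Aphidicolin inhibits the replicative DNA polymerases, so that replication forks stall while the helicase goes on and single-stranded DNA is exposed. The kinases ATR and ATM then signal to the cell cycle: S-phase cells are held back from mitosis, and genes of replication and of mitosis, which are transcribed in different phases, are affected differently. ATMIN, a partner of ATM with zinc fingers, also drives transcription of Dynll1, a dynein light chain.

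Counts per gene came to 17463067 and 14081833 reads in the APH libraries and 18451076 and 19191270 in the DMSO libraries, within the range of 9321329 to 21020662 over the series. Levels below are CPM, counts relative to the library size as scaled by TMM, and fold changes are log2 of APH over DMSO with their standard error (SE). Replicates correlated at 0.9969 for APH and 0.9978 for DMSO, across genes on log CPM. Atmin had 3.77 and 4.42 CPM with APH and 4.70 and 4.85 CPM with DMSO in the knock-out line, against 32.9 and 30.9 CPM with APH and 26 and 25 CPM with DMSO in wtATMIN at 4 h, so each knock-out library lay below each wtATMIN library. All 14 fibroblast markers were in the table, led by Col1a1 at 11000 CPM, and their summed level was 27000 and 27400 CPM with APH and 30800 and 32500 CPM with DMSO. Markers of other cells were low: the 10 epithelial markers summed to 0.472 and 0.899 CPM with APH and 0.623 and 0.600 CPM with DMSO, and the 8 endothelial markers to 1.18 and 1.42 CPM with APH and 1.02 and 0.491 CPM with DMSO. The 8 muscle markers, mostly Tnnt2, summed to 10 and 9.44 CPM with APH and 6.57 and 7.41 CPM with DMSO. The 8 neural markers, mostly Map2, summed to 44.3 and 45 CPM with APH and 58.5 and 58.8 CPM with DMSO, and 1 of the 4 tested was called lower. Defining genes with no read in any of the 4 libraries were Ptprc for blood, Pecam1 for endothelium, Myog for muscle and Esrp1 for epithelium. The summed blood markers, mostly Csf1r, stood at 21.3 and 19.6 CPM with APH and 15.4 and 15.5 CPM with DMSO. Of the 6 tested, 1 was called higher. The adipocyte markers, mostly Fabp4, stood at 91.8 and 81.9 CPM with APH and 115 and 121 CPM with DMSO. Of the 3 tested, 1 was called lower. The part of these cell types in the results was not tested. Gm42418, a locus that overlaps ribosomal RNA sequence, had 23002 and 34342 CPM with APH and 14153 and 14505 CPM with DMSO, and with it left out before scaling 3778 genes were called in place of 3768.

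A gene was called where edgeR's quasi-likelihood test gave an adjusted p (Benjamini-Hochberg over all 18484 genes tested) under 0.05. APH for 4 h changed 3768 genes in the knock-out line, 20.4% of those tested: 1753 were higher (9.48%) and 2015 were lower (10.9%). Most changes were small, with a median size of 0.44 on the log2 scale, and 186 genes rose and 253 fell more than 2-fold. The median log2 fold change over all genes was -0.02. Without DMSO replicate 2 the calls came to 2270 (988 higher, 1282 lower) and without APH replicate 2 to 2337 (1088 higher, 1249 lower). The plot of fold changes by gene list shows the groups that moved together: genes of mitosis and the replication-dependent histones to the left, genes of replication, of early growth-factor signalling and of chemokines to the right.

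**Figure D1:**
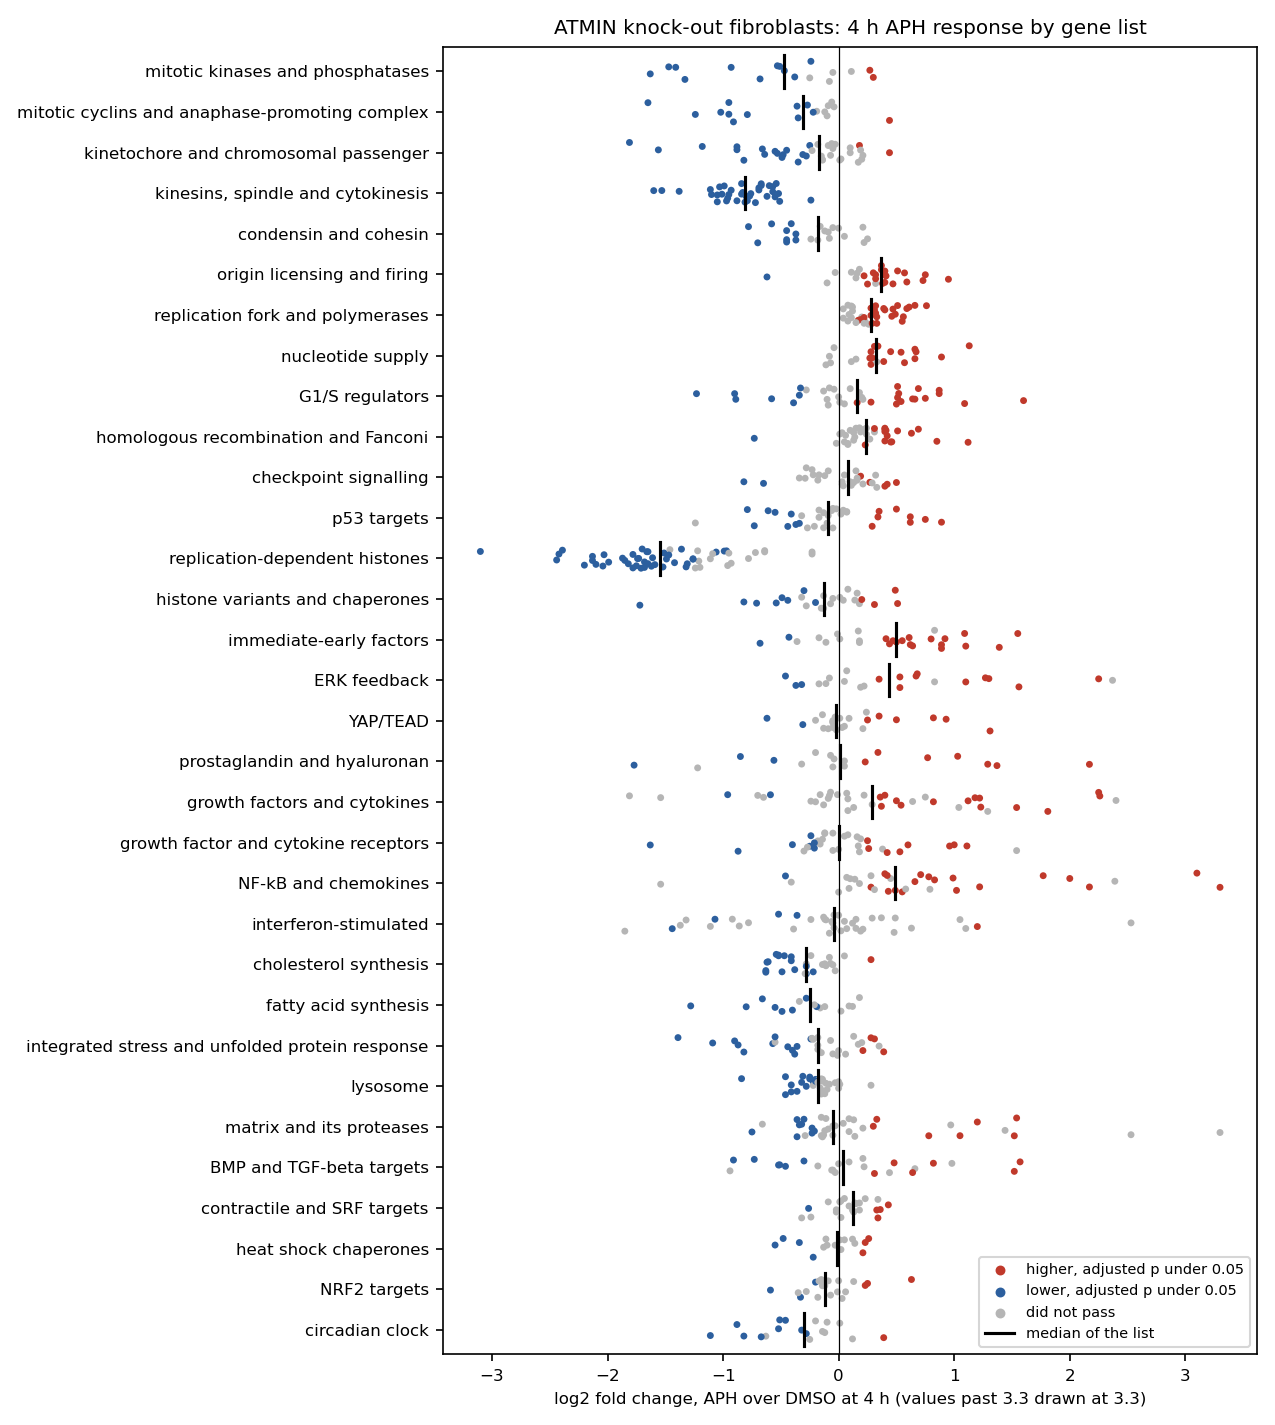
Log2 fold change (APH over DMSO, 4 h, ATMIN knock-out line, 2 libraries each) of every tested member of each gene list, 1 point per gene, coloured by the call, with a black bar at the list median. All 37 genes of the kinesin, spindle and cytokinesis list lie to the left of 0, while the fork and polymerase list has 23 genes called higher and 0 called lower.

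The mitosis genes fell. Of 131 tested genes in 5 lists (mitotic kinases and phosphatases, mitotic cyclins with the anaphase-promoting complex, kinetochore, spindle motors, and condensin with cohesin), 85 fell and 5 rose, with a median log2 fold change of -0.48 against -0.02 over all genes. In bulk RNA, fewer cells in mitosis and less RNA per cell cannot be told apart. The spindle list was the most uniform: all 37 tested motors, spindle proteins and cytokinesis factors fell, with a median of -0.81, and none of them overlapped between APH and DMSO libraries (33% of all tested genes lay below DMSO in both APH libraries). Cohesin and condensin genes moved less, with 9 of 21 called lower and a median of -0.18; the 9 became 5 without DMSO replicate 1 or without APH replicate 2.

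Among the kinases, Plk1, which drives mitotic entry and spindle assembly (ENSMUSG00000030867, chromosome 7, 122159439 to 122169873 on mm10), had 47.9 and 48.2 CPM with APH and 148 and 150 CPM with DMSO. Its log2 fold change was -1.63 ± 0.07 (adjusted p = 5.77e-19). The spindle checkpoint kinase Bub1b stood at 67.3 and 65.5 CPM with APH and 172 and 181 CPM with DMSO (-1.41 ± 0.06, adjusted p = 2.54e-18). Aurka, the spindle pole kinase, had 49.6 CPM in both APH libraries and 126 and 123 CPM with DMSO (-1.33 ± 0.07). For each of these kinases, both APH libraries lay far below both DMSO libraries. The phosphatase that switches on the mitotic kinase CDK1, Cdc25c, had 12.3 and 12.1 CPM with APH and 34.0 and 33.6 CPM with DMSO (-1.47 ± 0.09). In this list 11 of 17 genes fell. Pbk and Pkmyt1, the CDK1-inhibiting kinase, were called higher by 0.30 and 0.27, and without 1 library the list had 0 or 1 genes called higher.

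Of the cyclins and their degradation machinery, 11 of 18 fell and 1 rose. Cdc20, which activates the anaphase-promoting complex (ENSMUSG00000006398, chromosome 4, 118432901 to 118437352), had 65.6 and 71.4 CPM with APH against 219 and 211 CPM with DMSO (-1.65 ± 0.07, adjusted p = 5.77e-19). Ccnb1, the main mitotic cyclin, had 74.1 and 80 CPM with APH and 181 and 183 CPM with DMSO (-1.24 ± 0.06). Cks2 and the conjugating enzyme Ube2c fell by 0.95 and 1.02 on the log2 scale. The exception was Fbxo5, an inhibitor of the anaphase-promoting complex that is made from S phase onwards, with 58.0 and 53.2 CPM with APH and 38.9 and 42.9 CPM with DMSO (0.44 ± 0.09, adjusted p = 0.000453).

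Kinetochore genes divided: 17 of 38 fell and 2 rose, with a median of -0.17. Cenpf, a protein of the kinetochore corona (chromosome 1, 189640606 to 189688086), had 55.0 and 39.9 CPM with APH against 174 and 160 CPM with DMSO, the largest fall of this list (-1.81 ± 0.12). Its APH libraries differed from each other by more than those of Plk1, Cdc20 or Racgap1. Cenpa, the centromeric histone, had 46.0 and 51.7 CPM with APH and 110 and 111 CPM with DMSO (-1.18 ± 0.07). Of the genes called higher, Cenpu (0.44 ± 0.11) and Zwint (0.18 ± 0.06), Zwint lost its call without any of the 4 libraries and Cenpu without 1 of them. Among spindle genes, Racgap1, a part of the centralspindlin complex of cytokinesis (chromosome 15, 99620496 to 99651656), had 192 and 185 CPM with APH and 374 and 361 CPM with DMSO (-0.96 ± 0.05), and the kinesin Kif20a 123 and 130.0 CPM with APH and 268 and 274 CPM with DMSO (-1.10 ± 0.06). Of cohesin and condensin, Ncapd2 fell by 0.78 and Rad21 by 0.58 on the log2 scale, and Top2a, the topoisomerase that untangles chromosomes, stood at 534 and 479 CPM with APH and 695 and 685 CPM with DMSO.

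**Figure D2:**
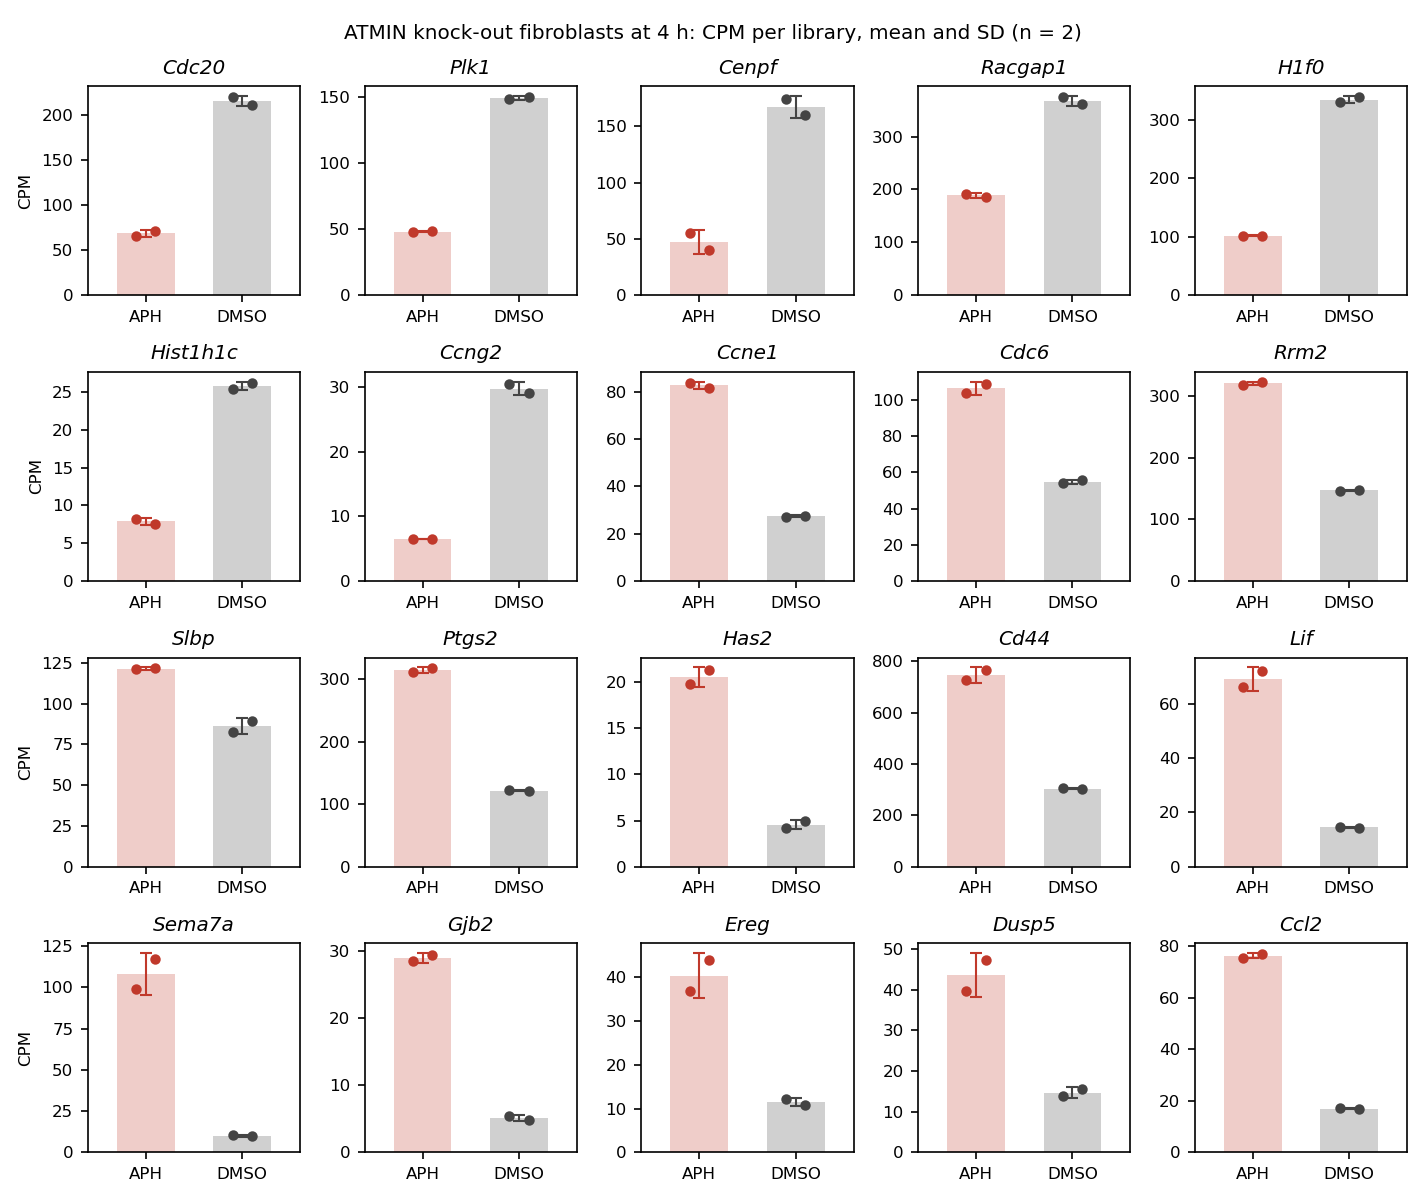
CPM of 20 named genes in each of the 4 libraries (points), with the group mean (bar) and SD (line), APH left of DMSO, n = 2 each, on linear axes that start at 0. Cdc20 (65.6 and 71.4 CPM with APH, 219 and 211 with DMSO) and H1f0 show the fall, Rrm2 and Ccl2 the rise, with no overlap between groups. Ccl2 was also picked under a rule that asked for no overlap.

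The promoters of mitosis genes often hold the cell cycle homology region, CHR, which binds the DREAM complex and B-Myb/FoxM1, and a nearby CCAAT box, which binds NF-Y. A window from 250 bases before to 50 bases after the transcription start of each gene (RefSeq sequences, GRCm38.p6) was searched on both strands for TTTGAA and CCAAT. Promoters of 4 genes named above, chosen because they hold both motifs, are shown in the direction of the gene with the motifs in capitals: Cdc20 (chr4:118437294-118437593, minus strand), Plk1 (chr7:122159185-122159484, plus strand), Cenpf (chr1:189688037-189688336, minus strand) and Racgap1 (chr15:99651607-99651906, minus strand).
Cdc20: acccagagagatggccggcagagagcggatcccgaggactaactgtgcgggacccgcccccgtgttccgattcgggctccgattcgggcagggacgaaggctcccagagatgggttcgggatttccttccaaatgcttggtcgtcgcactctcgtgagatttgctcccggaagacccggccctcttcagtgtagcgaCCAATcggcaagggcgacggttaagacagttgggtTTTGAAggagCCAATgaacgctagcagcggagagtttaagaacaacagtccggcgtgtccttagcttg
Plk1: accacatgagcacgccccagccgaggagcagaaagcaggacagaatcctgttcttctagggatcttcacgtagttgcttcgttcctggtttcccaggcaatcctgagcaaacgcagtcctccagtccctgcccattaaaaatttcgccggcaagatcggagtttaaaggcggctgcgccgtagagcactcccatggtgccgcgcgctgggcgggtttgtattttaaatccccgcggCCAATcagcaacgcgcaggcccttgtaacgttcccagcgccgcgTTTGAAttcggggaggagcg
Cenpf: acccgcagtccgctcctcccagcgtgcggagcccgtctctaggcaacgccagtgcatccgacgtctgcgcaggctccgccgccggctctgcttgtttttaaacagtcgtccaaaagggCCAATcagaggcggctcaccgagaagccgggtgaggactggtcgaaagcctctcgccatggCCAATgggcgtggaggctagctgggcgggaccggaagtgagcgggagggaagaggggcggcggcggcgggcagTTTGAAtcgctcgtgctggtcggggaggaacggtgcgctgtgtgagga
Racgap1: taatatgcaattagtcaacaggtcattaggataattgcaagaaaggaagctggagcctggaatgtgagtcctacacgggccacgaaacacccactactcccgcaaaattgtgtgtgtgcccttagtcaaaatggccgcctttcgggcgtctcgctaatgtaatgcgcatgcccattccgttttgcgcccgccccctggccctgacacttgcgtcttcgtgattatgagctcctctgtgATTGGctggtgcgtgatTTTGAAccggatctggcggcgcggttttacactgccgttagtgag
In Cdc20 the TTTGAA begins 18 bases before the start site. Counted from 1 at the start site, it begins at base 6 in Racgap1, at base 3 in Cenpf and at base 31 in Plk1. CCAAT, or its reverse ATTGG in Racgap1, stands upstream of the CHR element in each of these promoters, and Cdc20 has a further copy just after it. TTTGAA was present in 14.8% of the tested genes with a promoter in the table (11669 genes, and 17.9% of all 32851 promoters). The share was 72.7% of the 33 spindle genes matched, 56.2% of the 16 condensin and cohesin genes and 50.0% of the 12 kinases. It was 41.2% of the 17 genes of the cyclin list and 39.4% of the 33 kinetochore genes. Outside these lists, 49.0% of 51 replication-dependent histone genes, 50.0% of 8 fibroblast markers and 32.0% of 25 G1/S regulators had it. Within the 5 mitosis lists, 46 of 59 genes with TTTGAA in the window fell, with a median log2 fold change of -0.67, against 25 of 52 genes without it, with a median of -0.21. The spindle list, in which all 37 tested genes fell, supplied 24 of the 59, so the split also separates lists. Over all tested genes with a promoter in the table, 17.1% of those with TTTGAA fell, against 12.1% of those without it. These shares include the mitosis genes themselves. CCAAT was common everywhere (43.0% of tested genes). A match of letters is a description of the window, not a site.

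Genes of DNA replication rose by smaller amounts. Of 156 tested genes in 5 lists (origin licensing and firing, fork proteins and polymerases, nucleotide supply, G1/S regulators, and homologous recombination with the Fanconi pathway), 87 rose and 9 fell, with a median of 0.28. Fork genes were the most even: 23 of 37 rose, 0 fell, and both APH libraries lay above both DMSO libraries for 35 of them, against 27.4% of all tested genes. In nucleotide supply, 15 of 22 rose and 0 fell (median 0.32).

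In the licensing list, 19 of 27 rose and 1 fell, with a median of 0.37. Cdc6, which loads the MCM helicase (chromosome 11, 98907801 to 98923940), had 104 and 109 CPM with APH and 54.1 and 55.6 CPM with DMSO (0.95 ± 0.07, adjusted p = 2.82e-12). Mcm10, which takes part in helicase activation, had 103 and 106 CPM with APH and 64.5 and 59.2 CPM with DMSO (0.75 ± 0.07). The member that fell was Dbf4, the activator of the origin kinase CDC7, with 78.5 and 73.2 CPM with APH and 120 and 114 CPM with DMSO (-0.62 ± 0.08). Of fork genes, Clspn, the ATR mediator claspin (chromosome 4, 126556935 to 126593903), had 174 and 159 CPM with APH and 97.4 and 100 CPM with DMSO (0.76 ± 0.06), and Pcna, the polymerase clamp, 423 CPM in both APH libraries and 296 and 305 CPM with DMSO (0.49 ± 0.06). Rrm2, the regulated subunit of ribonucleotide reductase, had 319 and 323 CPM with APH and 146 and 148 CPM with DMSO (1.13 ± 0.06), the highest rise of the nucleotide list.

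Of G1/S regulators 15 of 35 rose and 7 fell. Ccne1, cyclin E1, which drives S-phase entry (chromosome 7, 38097984 to 38107534), had 83.7 and 81.6 CPM with APH and 27.1 and 27.6 CPM with DMSO (1.6 ± 0.08, adjusted p = 1.04e-17). Skp2, which targets CDK inhibitors for degradation, and Mybl2 each rose by 0.87 (± 0.08). The CDK4/6 inhibitors Cdkn2d and Cdkn2b fell: Cdkn2d had 11.9 and 11.2 CPM with APH and 26.9 and 27.4 CPM with DMSO (-1.23 ± 0.10), and Cdkn2b had 30.8 and 31.4 CPM with APH and 55.4 and 59.6 CPM with DMSO (-0.89 ± 0.09). Homologous recombination and Fanconi genes rose in 15 of 35 cases and 1 fell (9 without APH replicate 1), led by the nucleases Dna2 (47.6 and 45.0 CPM with APH, 22 and 20.7 CPM with DMSO; 1.12 ± 0.10) and Exo1 (0.85 ± 0.08).

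The E2F factors bind TTTGGCGC, TTTCCCGC or TTTCGCGC. These letters, on either strand, were in 3.88% of tested genes with a promoter in the table. The share was 52.4% of the 21 licensing genes matched and 35.5% of the 31 fork genes. Of the other replication lists, 8 of 25 G1/S regulators, 4 of 25 recombination and Fanconi genes and 1 of 20 nucleotide supply genes had them. They were also in 6 of 16 condensin and cohesin genes, a list with 9 genes called lower and 0 higher. RefSeq and the gene position given above place the start of Cdc6 differently. The Cdc6 window, and the letters in it, lie inside the gene as placed above, downstream of that start. The promoters of Cdc6 (chr11:98907901-98908200, plus strand) and Clspn (chr4:126556730-126557029, plus strand) were chosen because each holds a copy. It is read as the reverse complement and given in capitals.
Cdc6: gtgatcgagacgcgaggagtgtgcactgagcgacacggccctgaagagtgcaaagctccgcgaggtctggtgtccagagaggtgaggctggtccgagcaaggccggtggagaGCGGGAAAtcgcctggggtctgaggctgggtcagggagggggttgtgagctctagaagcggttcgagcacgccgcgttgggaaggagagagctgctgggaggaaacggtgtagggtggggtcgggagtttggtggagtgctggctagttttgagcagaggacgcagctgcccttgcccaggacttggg
Clspn: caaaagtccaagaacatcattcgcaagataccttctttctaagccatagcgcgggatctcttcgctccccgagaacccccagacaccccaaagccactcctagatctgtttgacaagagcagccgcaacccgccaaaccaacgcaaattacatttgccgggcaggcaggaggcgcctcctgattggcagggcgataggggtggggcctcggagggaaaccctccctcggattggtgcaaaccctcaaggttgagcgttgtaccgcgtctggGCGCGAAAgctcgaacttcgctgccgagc
Unlike with TTTGAA in the mitosis genes, the split made little difference to the counts: 22 of 35 genes with the E2F letters rose (median 0.38), and 50 of 87 without them (median 0.29). Over all tested genes, which include these lists, 15.2% of those with the E2F letters rose, against 10.9% of those without them.

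**Figure D3:**
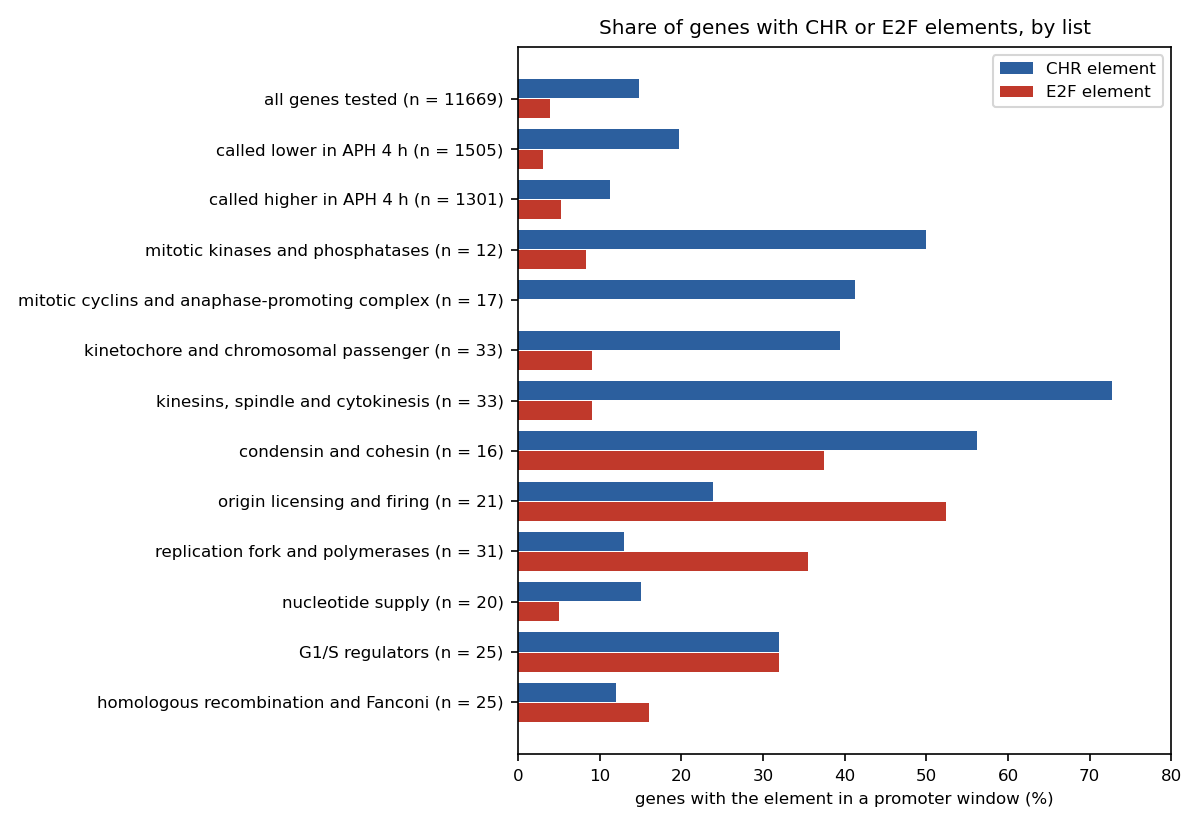
Percent of genes with TTTGAA (CHR) or an E2F motif in the 300-base promoter window, for all tested genes, for genes called higher or lower, and for the mitosis and replication lists, with the number of genes with a promoter in brackets. The spindle list (72.7% with CHR) and the licensing list (52.4% with E2F) exceed the share among all tested genes (14.8% and 3.88%).

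The histones that are made together with DNA fell. Replication-dependent histone genes are transcribed in S phase, and their messages lack a poly(A) tail, so a poly(A)-selecting kit recovers them in part. Of 62 such genes, 58 passed the filter on low counts; 42 of those fell and 0 rose, with a median log2 fold change of -1.55. For 56 of the 58 both APH libraries lay below both DMSO libraries, against 33% of all tested genes. Of all tested genes 10.9% were called lower. Hist1h1c, a linker histone (chromosome 13, 23738808 to 23740367), had 8.25 and 7.56 CPM with APH and 25.4 and 26.2 CPM with DMSO (-1.70 ± 0.14, adjusted p = 1.05e-11). Hist1h2ap had 3.54 and 3.59 CPM with APH and 19.3 CPM in both DMSO libraries (-2.44 ± 0.21), and Hist1h2ae 1.59 and 1.80 CPM with APH and 7.37 and 6.43 CPM with DMSO (-2.03 ± 0.25). Several histone genes of the cluster are near-identical copies, and the authors' counting could have divided reads between them.

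Histone variants and histone chaperones, taken as 1 list, divided, with 8 of 25 called lower and 4 higher. Fewer were called in each direction without APH replicate 2. H1f0, the linker histone of resting cells (chromosome 15, 79028450 to 79030504), had 102 and 101 CPM with APH and 330.0 and 339 CPM with DMSO (-1.72 ± 0.07, adjusted p = 1.28e-19). H2afx, the variant that is phosphorylated at DNA breaks, had 68.0 and 74.3 CPM with APH and 125 and 126 CPM with DMSO (-0.82 ± 0.09). Slbp, the protein that binds the histone message stem-loop, had 121 and 122 CPM with APH and 82.6 and 89.6 CPM with DMSO (0.49 ± 0.08).

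Among growth-factor signalling genes more members rose than fell. Immediate-early factors, which are transcribed within minutes of a stimulus, were higher in 16 of 27 cases and lower in 2 (median 0.50). Egr1 had 103 CPM in both APH libraries and 43.3 and 53.8 CPM with DMSO (1.09 ± 0.11), Fosl1, an AP-1 subunit, 92.0 and 104 CPM with APH and 50.0 and 53.3 CPM with DMSO (0.92 ± 0.10), and Ier3 67.2 and 67.3 CPM with APH and 36.3 and 36.4 CPM with DMSO (0.89 ± 0.08). Klf4, also of this list, had 40.0 and 39.5 CPM with APH and 63.4 and 64.4 CPM with DMSO (-0.68 ± 0.08). The ERK feedback list had 10 of 22 genes higher and 3 lower, and 0 lower without APH replicate 1. The ERK phosphatase Dusp5 had 39.7 and 47.4 CPM with APH and 13.8 and 15.6 CPM with DMSO (1.56 ± 0.10), and its relative Dusp6 18.7 and 19.6 CPM with APH and 8.56 and 7.36 CPM with DMSO (1.27 ± 0.11).

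In the list of growth factors and cytokines, 14 of 39 tested genes rose, 2 fell and the others did not pass (median 0.29), where 9.48% of all tested genes rose. Lif, a cytokine of the interleukin-6 family (chromosome 11, 4257557 to 4272514), had 66.0 and 72.1 CPM with APH and 14.6 and 14.3 CPM with DMSO (2.25 ± 0.11, adjusted p = 1.05e-17). The EGF receptor ligand Ereg had 36.7 and 43.9 CPM with APH and 12.1 and 10.8 CPM with DMSO (1.81 ± 0.10), and Hbegf 140.0 and 156 CPM with APH and 66.5 and 63.6 CPM with DMSO (1.18 ± 0.08). Areg, a further EGF receptor ligand, had 4.25 and 5.17 CPM with APH and 0.680 and 1.25 CPM with DMSO (2.26 ± 0.30). Bmp4 fell to 19.9 and 19.5 CPM with APH, against 36.4 and 40.0 CPM with DMSO (-0.96 ± 0.10). Receptors had no common direction, with 8 higher and 7 lower of 33: Il1rl1, the interleukin-33 receptor, had 408 and 403 CPM with APH and 193 and 183 CPM with DMSO (1.11 ± 0.07), and Pdgfrb had 126 and 127 CPM with APH and 232 and 230.0 CPM with DMSO (-0.87 ± 0.07).

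Of the genes with the largest rises, Sema7a, a membrane-anchored semaphorin (chromosome 9, 57940112 to 57962865), had 99.1 and 117 CPM with APH and 10.5 and 9.65 CPM with DMSO. Its log2 fold change, 3.42 ± 0.12, was the largest of those named here that rest on more than 100 reads (adjusted p = 8.18e-22). Gjb2, the gap junction protein connexin 26 (chromosome 14, 57098600 to 57104702), had 28.4 and 29.4 CPM with APH and 5.38 and 4.85 CPM with DMSO (2.49 ± 0.12). Has2, the main hyaluronan synthase of fibroblasts, had 19.8 and 21.3 CPM with APH and 4.19 and 4.91 CPM with DMSO (2.17 ± 0.14), and Cd44, the hyaluronan receptor, 726 and 768 CPM with APH and 305 and 304 CPM with DMSO (1.29 ± 0.07). Ptgs2, cyclooxygenase-2, had 312 and 318 CPM with APH and 123 and 121 CPM with DMSO (1.37 ± 0.08). The largest fitted rises of the rarer genes named here rest on few reads. Nptx1 had 7 and 2 reads and Frmd4b 5 and 2 with APH, and both had 0 in each DMSO library. Krt16 had 12 and 7 reads with APH and 0 and 2 with DMSO, and Npas4 had 8 and 8 with APH and 2 and 2 with DMSO. Foxs1, Cyp1a1, Il15ra and Rgs16 rose too, at 0.354 to 2.10 CPM with APH; Nptx1, Frmd4b, Npas4, Foxs1 and Cyp1a1 lost their call without at least 1 library.

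Of matrix genes 7 of 38 rose and 9 fell, where 9.48% of all tested genes rose and 10.9% fell. Tnc, tenascin C, had 459 and 472 CPM with APH and 163 and 158 CPM with DMSO (1.54 ± 0.08), and Timp1, an inhibitor of matrix proteases, 283 and 290.0 CPM with APH and 123 and 127 CPM with DMSO (1.20 ± 0.06). The secreted matricellular genes Ccn2 and Ccn1, both targets of YAP/TEAD, rose by 1.31 and 0.82, while the YAP/TEAD list as a whole had 6 of 25 higher, 2 lower and a median of -0.02. Fibroblast markers moved the other way: 6 of 14 fell and 0 rose (3 without DMSO replicate 2), with Col1a2 at 4580 and 4550 CPM with APH and 5780 and 5940 CPM with DMSO (-0.36 ± 0.07).

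Of the genes named by size, the largest falls outside the histones and mitosis were those of Ccng2, Pif1 and a few rarer genes. Ccng2, cyclin G2, which is associated with cell cycle exit (chromosome 5, 93267257 to 93276231), had 6.49 and 6.44 CPM with APH against 30.5 and 29.0 CPM with DMSO (-2.20 ± 0.15, adjusted p = 1.6e-14). Pif1, a DNA helicase, had 8.25 and 9.21 CPM with APH and 37.8 and 39.0 CPM with DMSO (-2.14 ± 0.12). Phactr1, a regulator of protein phosphatase 1 and actin, had 1.47 and 0.899 CPM with APH and 5.72 and 7.41 CPM with DMSO (-2.43 ± 0.27). Syt17, Ppargc1a, Nipal3, Dhrs3, Hist1h2ao, Hist1h2bk and Hist1h1d fell as well, at 0.150 to 1.5 CPM with APH, and Hist1h2bk lost its call without 1 library. En1 had 0 and 1 reads with APH and 4 and 7 with DMSO, and Aspa 0 and 2 with APH and 8 and 8 with DMSO; both calls were lost without at least 1 library.

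Chemokine and NF-kB genes rose in 18 of 33 tested cases and fell in 1, with a median of 0.49. Cx3cl1, a membrane-bound chemokine, had 146 and 151 CPM with APH and 42.1 and 45.2 CPM with DMSO (1.77 ± 0.08, adjusted p = 6.02e-18). Ccl2, the monocyte chemoattractant (chromosome 11, 82035571 to 82037453), had 75.7 and 77.1 CPM with APH and 17.1 and 16.8 CPM with DMSO (2.17 ± 0.13), and its neighbour Ccl7 31.1 and 27.1 CPM with APH and 6.52 and 8.01 CPM with DMSO (2.00 ± 0.14). Cxcl1, which attracts neutrophils, had 37.5 and 35.2 CPM with APH and 17.5 and 18.3 CPM with DMSO (1.02 ± 0.10). The member that fell was Cxcl12, with 197 and 190.0 CPM with APH and 274 and 259 CPM with DMSO (-0.46 ± 0.08). Interferon-stimulated genes had no such rise: 1 of 39 was higher and 4 were lower, with a median of -0.04. The 1 was Oasl1, with 5.72 and 5.24 CPM with APH and 2.55 and 2.24 CPM with DMSO (1.20 ± 0.22).

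The wtATMIN line gave a response of its own at 4 h, from other libraries: 2773 genes were called (15%; 1341 higher, 7.25%, and 1432 lower, 7.75%; 1408 without wtATMIN DMSO replicate 2, 1432 without wtATMIN APH replicate 1 and 1717 without wtATMIN APH replicate 2). Of the 1753 genes that rose in the knock-out, 856 also rose in wtATMIN, which is 48.8% of the knock-out list and 63.8% of the wtATMIN list, and 9 fell. Of the 2015 that fell, 926 also fell in wtATMIN, 46% of the knock-out list and 64.7% of the wtATMIN list, and 6 rose. By list, wtATMIN had 33 of 37 spindle genes lower (median -0.58), 38 of 58 histone genes lower (median -1.35), 18 of 37 fork genes higher (median 0.21) and 11 of 22 ERK feedback genes higher (median 0.35). Of the NF-kB and chemokine list, 6 of 33 were higher and 4 lower in wtATMIN (median 0.06).

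The responses of the lines were then compared directly. Ccl2, Ccl7 and Cxcl1 were among the 6 called genes with the largest positive differences at a mean logCPM of 1 or more. Clone and predicted gene names were left out of this ranking. Larger in size were the differences of Rubcnl, Dio3 and Il15ra in the same direction and of Lncenc1, Syt17 and Pde8b in the other. The difference of the 4 h responses, knock-out minus wtATMIN, passed in 124 of 18484 genes (0.671%): 64 were higher (0.346%) and 60 lower (0.325%). Without 1 library this count lay between 54 and 156, and at an unadjusted p under 0.05 it was 1747. The NF-kB and chemokine list held 7 of 33 tested genes in the higher direction (6 or 7 without any 1 library) and 0 in the lower. Ccl2 had 10.7 and 15 CPM with APH and 7.53 and 11.7 CPM with DMSO in wtATMIN, so the response there (0.41) did not pass, and the difference was 1.76 ± 0.21 (adjusted p = 5.62e-06). Ccl7 in wtATMIN had 2.19 and 2.77 CPM with APH and 2.12 and 2.60 CPM with DMSO (difference 1.94 ± 0.30). For Cxcl1 the lines went in opposite directions: in wtATMIN it had 21.6 and 26 CPM with APH and 43.7 and 47.0 CPM with DMSO (-0.93), and the difference was 1.95 ± 0.14 (adjusted p = 9.63e-12). Cx3cl1 rose in both lines, by 1.77 in the knock-out and by 0.73 in wtATMIN (difference 1.04 ± 0.12). Cxcl10, Csf1 and Nfkb2 make up the other genes of the list that passed, with differences of 1.16 ± 0.19, 0.65 ± 0.08 and 0.42 ± 0.09; these were named after their values were seen. Ccl2, Ccl7 and Cxcl1 had 17.1 and 16.8, 6.52 and 8.01, and 17.5 and 18.3 CPM with DMSO in the knock-out line, and 7.53 and 11.7, 2.12 and 2.60, and 43.7 and 47.0 CPM with DMSO in wtATMIN, so the levels without APH differed between lines too.

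**Figure D4:**
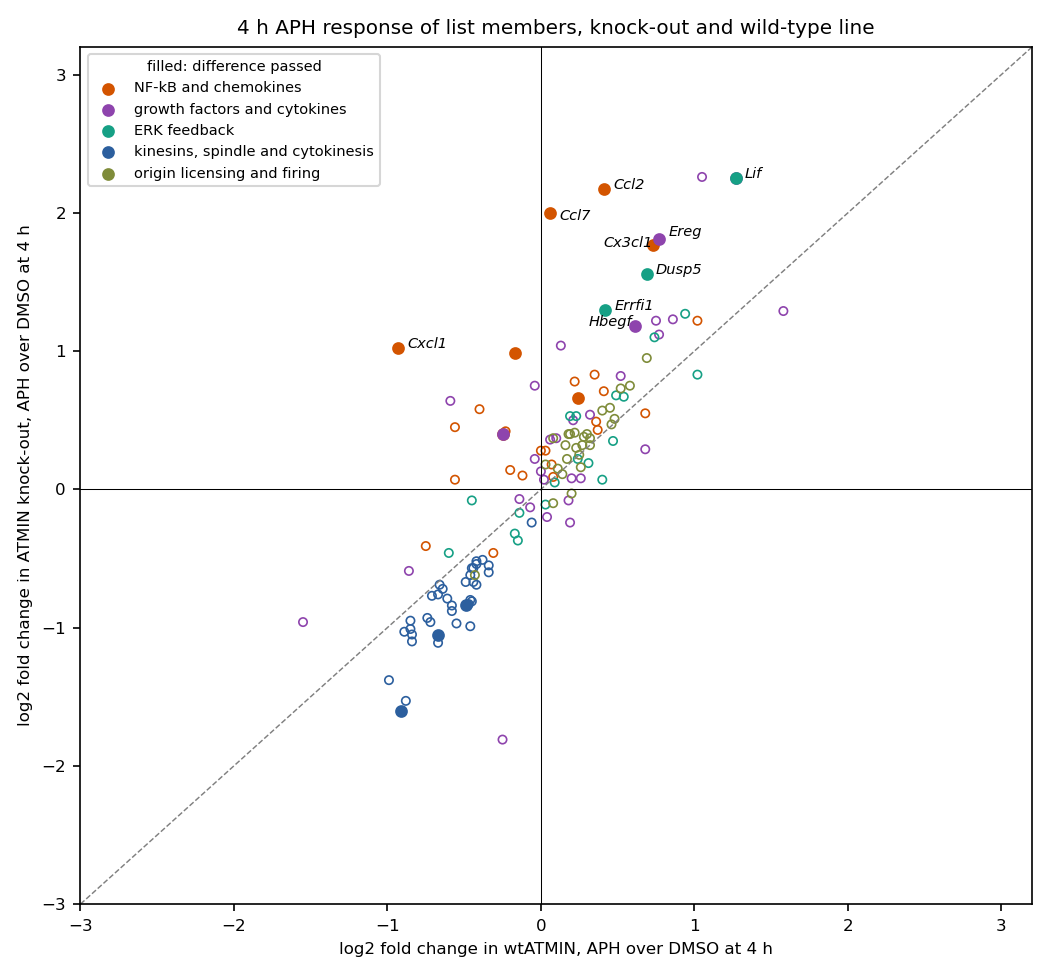
Log2 fold change of APH over DMSO at 4 h in the ATMIN knock-out line (vertical) against wtATMIN (horizontal) for tested members of 5 lists with a mean logCPM of at least 1, with the diagonal of equal response dashed and the genes whose difference passed filled. Ccl2 and Ccl7 lie near 0 on the wtATMIN axis (0.41 and 0.06) and near 2 on the knock-out axis (2.17 and 2.00).

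In the growth factor list the difference was higher for 4 of 39 genes, Lif, Ereg, Hbegf and Csf1 (3 to 5 genes without 1 library), and in the ERK feedback list for 3 of 22, Lif, Errfi1 and Dusp5. Lif rose in wtATMIN to 39.8 and 48.8 CPM with APH, against 20.2 and 16.6 CPM with DMSO (1.27), and the difference was 0.98 ± 0.16 (adjusted p = 0.000305). Ereg had 95.5 and 108 CPM with APH and 61.6 and 57.6 CPM with DMSO in wtATMIN (difference 1.04 ± 0.13), Errfi1, an inhibitor of the EGF receptor, 80.4 and 83.8 CPM with APH and 62.4 and 60.1 CPM with DMSO (difference 0.88 ± 0.12), and Dusp5 61.7 and 63.6 CPM with APH and 35.0 and 42.4 CPM with DMSO (difference 0.87 ± 0.14). Sema7a had 47.2 and 49.8 CPM with APH and 9.27 and 10.3 CPM with DMSO in wtATMIN (difference 1.11 ± 0.17), and Gjb2 152 and 169 CPM with APH and 77.1 and 68.5 CPM with DMSO (difference 1.35 ± 0.14). In the matrix list the difference was higher for 5 of 38 genes and lower for 1. Timp1 (0.73 ± 0.09), Plau (0.70 ± 0.11) and Tnc (0.54 ± 0.12) rose more in the knock-out line, while Adamts1 and Col3a1 fell in both lines and less in the knock-out line; Thbs2 was the member with the lower difference. Adamts1, Col3a1 and Thbs2 were named after their values were seen.

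In the other direction, Ccng2 fell more in the knock-out line: in wtATMIN it had 6.93 and 8.19 CPM with APH and 16.2 and 13.5 CPM with DMSO (difference -1.23 ± 0.21). Of the 131 tested genes in the mitosis lists, 5 were lower in the difference, against 0.325% of all tested genes. These were Cenpf (-0.88 ± 0.17), Nusap1 (-0.69 ± 0.16), Cdc25c (-0.54 ± 0.13), Kif23 (-0.38 ± 0.09) and Spag5 (-0.35 ± 0.09). Nusap1 and Spag5 were named after their values were seen. In the histone list 0 of 58 passed in either direction, with a median difference of -0.05. Of all tested genes only 0.671% passed, so 0 of 58 does not set this list apart. Rubcnl, Dio3, Lncenc1 and Mmd were not called in the knock-out line itself, and Map3k9 not in wtATMIN, while Pde8b fell in the knock-out line (-0.62) and rose in wtATMIN (1.90, from 16 and 4 reads with APH and 3 and 2 with DMSO). Dio3, the deiodinase that inactivates thyroid hormone, had 4.48 and 3.59 CPM with APH and 3.57 and 3.43 CPM with DMSO in the knock-out, and 7.84 and 10.6 CPM with APH and 27.3 and 40.5 CPM with DMSO in wtATMIN (difference 2.10 ± 0.30). Il15ra, Rubcnl, Lncenc1, Pde8b and Map3k9 lost this call without 4 or more of the 8 libraries.

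Checkpoint and p53 genes had no common direction at 4 h, when 9.48% of all tested genes rose and 10.9% fell. Of the checkpoint list 5 of 30 rose and 2 fell, with a median of 0.08, and the count of rises was 1 to 8 in the alternatives. Rnf168, a ubiquitin ligase of the break response, had 67.6 and 64.9 CPM with APH and 45.8 and 48.1 CPM with DMSO (0.50 ± 0.07). Of p53 targets 8 of 34 rose and 8 fell (5 and 4 without DMSO replicate 2), with a median of -0.09. Cdkn1a, the CDK inhibitor p21, had 11.7 and 8.99 CPM with APH and 10.8 and 11.4 CPM with DMSO (-0.09 ± 0.18, adjusted p = 0.807), and Mdm2, the p53 ligase, had 56.5 and 56.6 CPM with APH and 57.5 and 60.8 CPM with DMSO (-0.06 ± 0.07). Chek1 (0.15 ± 0.11), Trp53 (0.04 ± 0.06), Atm (0.11 ± 0.14) and Atmin (-0.23 ± 0.17) did not pass. Dynll1 had 56.5 and 61.6 CPM with APH and 51.6 and 49.0 CPM with DMSO (0.23 ± 0.07, adjusted p = 0.0234); the call was lost in 3 of the 4 fits without 1 library.

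In the lists of lipid synthesis, stress responses, the lysosome and the clock more genes fell than rose. Of all tested genes 10.9% fell and 9.48% rose. Cholesterol synthesis had 15 of 27 genes lower and 1 higher (median -0.28), and fatty acid synthesis 8 of 16 lower and 0 higher (median -0.25; 5 lower without DMSO replicate 1 or APH replicate 1). Hmgcs1 had 254 and 248 CPM with APH and 365 and 354 CPM with DMSO (-0.52 ± 0.07), and Scd2, a desaturase, 1460 and 1440 CPM with APH and 2500 and 2540 CPM with DMSO (-0.80 ± 0.06). Lpin1, the phosphatidate phosphatase, had 12.6 and 12.7 CPM with APH and 30.8 and 30.4 CPM with DMSO (-1.28 ± 0.10). In the list of the integrated stress and unfolded protein responses 12 of 32 fell and 4 rose: Ddit4, the inhibitor of mTORC1, had 49.8 and 49.4 CPM with APH and 125 and 135 CPM with DMSO (-1.39 ± 0.11), and Ddit3, the factor CHOP, 22.1 and 19.8 CPM with APH and 36.7 and 42.0 CPM with DMSO (-0.90 ± 0.10). Of lysosomal genes 14 of 33 fell and 0 rose; the 14 became 7 without DMSO replicate 1 and 8 without APH replicate 2. Circadian clock genes were lower in 9 of 18 cases and higher in 1, with Dbp, a clock output factor, at 3.83 and 4.49 CPM with APH and 9.52 and 8.40 CPM with DMSO (-1.11 ± 0.21). Contractile and SRF targets (4 of 23 higher, 1 lower), heat shock chaperones (3 higher and 4 lower of 16) and NRF2 targets (3 and 3 of 22) had no common direction.

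The same line was also sampled after 24 h with APH. APH for 24 h changed 5575 genes (30.2%; 2648 higher, 14.3%, and 2927 lower, 15.8%), and the response at 24 h minus that at 4 h passed in 3902 genes (21.1%; 1993 higher, 10.8%, and 1909 lower, 10.3%). Scaled by library size only, the 24 h response split into 3611 higher and 1911 lower, and the difference between times into 2538 higher and 1284 lower; the median of all genes then moved by 0.08. The mitosis genes turned: 26 of 37 spindle genes were higher than in DMSO at 24 h, 0 were lower, and for 35 of 37 the response at 24 h was above that at 4 h. The median of the list was 0.33 at 24 h, against -0.81 at 4 h, and 0.42 at 24 h with library size only. Histones were still lower in 18 of 58 cases and higher in 0 at 24 h, with a median of -1.28, against -1.55 at 4 h. The difference between times passed upwards for 5 of the 58 and downwards for 1. Their summed level with DMSO was 84.1 and 88.9 CPM at 24 h, against 221 and 220 CPM at 4 h. The part of these lower levels in the smaller number of calls was not tested.

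Some signalling genes that rose at 4 h responded less at 24 h, as did 48.6% of all 1753 genes that rose at 4 h. That test subtracts the same 4 h libraries by which the genes were called. Picking genes by their 4 h rise therefore favours this outcome. Sema7a had 3.3 and 3.95 CPM with APH and 3.11 and 3.28 CPM with DMSO at 24 h (24 h minus 4 h: -3.24 ± 0.24), Has2 6.61 and 7.07 CPM with APH and 6.33 and 6 CPM with DMSO (-2.02 ± 0.20), and Gjb2, which rose at 4 h, fell at 24 h to 0.472 and 0.530 CPM with APH, against 1.49 and 1.64 CPM with DMSO (-4.13 ± 0.35). The chemokine Ccl7 had 44.9 and 40.1 CPM with APH and 46.9 and 47.4 CPM with DMSO at 24 h (-2.15 ± 0.18), and Ccl2 stayed higher by 0.47. Of the growth factor list 16 of 39 and of the NF-kB and chemokine list 11 of 33 responded less at 24 h than at 4 h, against 10.3% of all tested genes. These lists had 14 of 39 and 18 of 33 genes higher at 4 h, in the same libraries that the difference subtracts. The share of all tested genes is therefore not a like reference for them, and no conclusion is drawn from the excess. At 24 h itself, 12 of 33 NF-kB and chemokine genes were higher and 6 lower, 10 of 27 immediate-early factors were higher and 4 lower, and 4 of 39 growth factors and cytokines were higher and 11 lower, against 14.3% higher and 15.8% lower of all tested genes.

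For other genes the response at 24 h was above that at 4 h, by the test of the difference. Picking genes by a fall at 4 h favours that outcome in the same way. Ccng2, which fell at 4 h, had 66.4 and 64.1 CPM with APH and 39.7 and 40.6 CPM with DMSO at 24 h (24 h minus 4 h: 2.90 ± 0.18). The p53 targets Cdkn1a (1.17 ± 0.26) and Mdm2 (1.04 ± 0.09) responded more at 24 h, with Mdm2 at 90.0 and 86.7 CPM with APH and 46.5 and 43.7 CPM with DMSO. Interferon-stimulated genes had 30 of 39 higher and 0 lower at 24 h, with a median of 0.85, against 1 higher and 4 lower at 4 h; for 17 of the 39 the difference between times passed. Gm42418 stood at 291 and 295 CPM with APH and 552 and 517 CPM with DMSO at 24 h, and mitochondrial genes took 2.81% and 2.72% of counts with APH and 2.56% and 2.70% with DMSO at 24 h, against 1.5% and 1.26% with APH and 1.41% and 1.37% with DMSO at 4 h. With Gm42418 left out before scaling, 5571 genes were called at 24 h in place of 5575, and 3910 in place of 3902 for 24 h minus 4 h. The part of the mitochondrial share in these results was not tested.

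**Figure D5:**
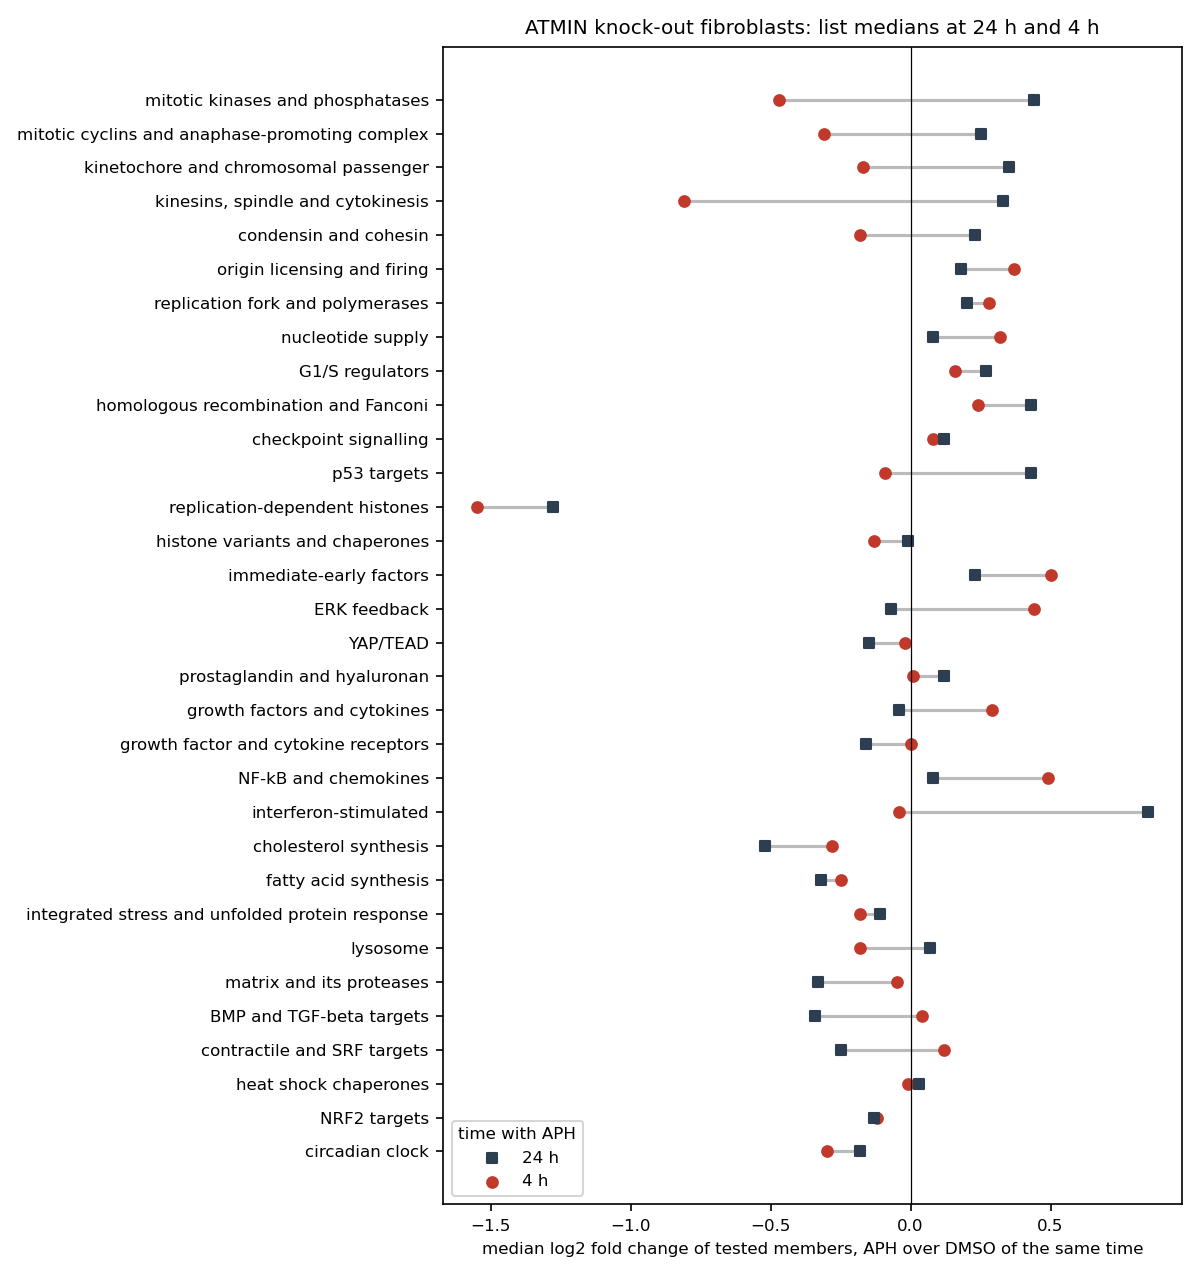
Median log2 fold change (APH over DMSO of the same time) of the tested members of each list in the ATMIN knock-out line at 24 h (squares) and 4 h (circles). Spindle genes stand at 0.33 at 24 h and -0.81 at 4 h, interferon-stimulated genes at 0.85 at 24 h and -0.04 at 4 h.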

How the data were processed

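Total RNA of mouse embryonic fibroblasts was sequenced with version 2 of the TruSeq RNA kit, from 1 µg of RNA per library, per the labels' protocols. The authors deposited raw counts of reads per Ensembl gene for 39017 genes and 32 libraries. The submitters' processing notes name TopHat2 2.0.13, Bowtie2 2.4.0, DESeq2 1.6.3 and the genome build mm10, with no role or order; the counting tool and its strand setting are not given in the sources used here, so reads of overlapping or antisense genes cannot be told apart. The tables name the treatments AT and UT, read as APH and DMSO. Symbols and positions came from GENCODE M21 on GRCm38 (37607 genes). The authors' comparison tables were not used here.

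Counts were filtered (filterByExpr), scaled by TMM and fitted with edgeR 4.0.16 in R 4.3.3 as 1 quasi-likelihood model over all 32 libraries in 16 groups, with 5 contrasts, each adjusted by Benjamini-Hochberg over 18484 genes. The model was also run on counts simulated from its own fitted means and spreads, which cannot show that it suits the real replicates. Named genes include the 15 largest rises and falls among called genes with a mean logCPM of 1 or more and no overlap between APH and DMSO libraries. The lack of overlap of these genes was thus fixed by the choice. Clone and predicted gene names were left out. With the same limits on level and name, but not on overlap, the 6 largest and smallest called differences from wtATMIN and between times were named. Also named are 7 fixed genes. For each list, up to 4 called members with the smallest p and up to 2 called in the other direction were added. Lists, members and tests were chosen with earlier results of these data known. As alternatives the fit was repeated with RLE size factors, with library size only, without the filter, with a replicate block, on the compared groups alone, with DESeq2 1.42.0, without the ATM knock-out APH libraries of 4 h, with Gm42418 left out before scaling, and in 12 fits without 1 library. A group then left with 1 library is assumed to vary like the others. Results for some named genes are not reported here.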

Additional observations from a re-analysis of the deposited data

Results flagged for a closer look

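Each value here is a difference between responses on the log2 scale, flagged because the test of the difference passed (edgeR's quasi-likelihood test). The 4 h response, knock-out minus wtATMIN, had a positive difference for Sema7a (1.11), Gjb2 (1.35), Lif (0.98), Ccl2 (1.76), Il15ra (2.00), Ccl7 (1.94) and Cxcl1 (1.95), which rose in the knock-out line. It was also positive for Rubcnl (2.27) and Dio3 (2.10), which did not pass in the knock-out line and fell in wtATMIN, by 1.66 and 1.88. It was negative for Syt17 (-3.08), Ccng2 (-1.23), Pif1 (-0.80), Cenpf (-0.88), Lncenc1 (-5.39), Pde8b (-2.52), Map3k9 (-1.60) and Mmd (-1.14). Of these, Lncenc1 and Mmd did not pass in the knock-out line and rose in wtATMIN, and Pde8b fell in the knock-out line and rose in wtATMIN. Lncenc1 had 0 reads in both wtATMIN DMSO libraries, so its fitted value depends on the prior count.

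In the knock-out line the response at 24 h exceeded that at 4 h for Dynll1 (0.39), Cdkn1a (1.17), Mdm2 (1.04), Ebf4 (5.15), Erbb3 (4.34), Celsr2 (3.54), Lbp (3.50), Nipal3 (3.23) and Ccng2 (2.90). It was below that at 4 h for Gjb2 (-4.13), Rgs16 (-3.35), Sema7a (-3.24), Gdf5 (-2.78), Il15ra (-2.67) and Npas4 (-2.56). Ebf4 had 0 reads in both 24 h DMSO libraries, and its fitted value depends on the prior count as well. Ebf4, Celsr2, Npas4, Il15ra, Rgs16 and Dynll1 lost this call without at least 1 library.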

How the results depend on the processing

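No named gene reversed under any alternative, 2643 gene values kept their side of the threshold, 155 lost a call and 7 gained one. The 4 h calls in the knock-out line were 2270 to 2604 without 1 library (988 to 1247 higher, 1249 to 1370 lower), against 3768. The calls of the difference from wtATMIN, 124, were 225 with no filter on low counts, 253 without the ATM knock-out APH libraries of 4 h, and 54 to 156 without 1 library. Calls in wtATMIN at 4 h were 1408 to 2722 without 1 library, against 2773. With library size only, the 24 h minus 4 h calls split into 2538 higher and 1284 lower, against 1993 and 1909. Replicate numbers did not pair the samples: deviations of same-numbered libraries correlated at 0.03 in this line at 4 h and from -0.23 to 0.20 over the 8 line and time pairs. With a replicate block within line and time, 3424 genes were called (1606 higher, 1818 lower), and the block moved no count over all genes by more than 1.5 times. Of the counts of list members under the alternatives, 118 moved by more than 1.5 times and 882 did not. Depth limits genes under about 1 CPM, where a few reads decide the call.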
